A study of Mus musculus with 2 samples.

Results

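Hmgcs1, Idi1, Fdft1, Sqle and Cyp51 encode enzymes of cholesterol synthesis, Insig1 encodes a protein that restrains that pathway, and Abca1 encodes a pump that exports cholesterol. These 7 genes were picked by name, with earlier results of these data known, from the 19465 genes that both count matrices hold. All 7 passed the filter on low counts, as did 19074 genes in all. Each was followed from the neural tissue across the edge into the tumor of 2 mouse cerebellar sections.

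The study describes both sections as carrying a breast cancer brain metastasis (BCBM) grown from HP organoids. These are so named for an activated HER2 and a mutant PIK3CA in mammary tumor cells of the mouse. The labels name section 1 HP-F1 +cre and section 2 HP-B6 +cre, and give both the B6-HP organoid line, the genotype HP and no treatment. The organoids were placed into the cerebellum of immunocompetent mice by stereotactic injection, so the tumors did not arise by spread from the breast. The study describes C57BL/6J donors and hosts, while the labels do not explain F1 and give no age for the 2 animals. There is 1 condition and 1 section per animal, so the comparisons are between regions of the same sections. The assay, Visium CytAssist for fixed tissue, counts probe pairs as unique molecular identifiers (UMIs) in spots on a grid, and a spot can hold several cells of different types.

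Spots were sorted with 21 genes of the lesion and 20 genes of neural tissue, none of which is a cholesterol gene, because the regions were rebuilt here from markers. The tumor held 779 spots in section 1 and 911 in section 2. The edge, 2 spots deep on each side of the border, held 124 and 168 spots on its tumor side and 130 and 179 on its neural side. The neural region beyond it held 2281 and 2684 spots. Tumor spots were much richer in RNA, with a median of 54096 and 40192 UMIs against 7369 and 9587.5 in neural spots, so levels are given as CPM, the counts in 1000000 UMIs, that is, relative to all other transcripts. Region levels of the members were also scaled with TMM factors, and levels of marker lists, by distance or by marker score were not. In such mixed spots, fewer cells of a type and less of the transcript per cell cannot be told apart. The markers that split the spots include all 9 epithelial markers (Epcam, keratins and others) and some of the fibroblast and cycling markers, so higher levels of these in the lesion follow from the rule. The lesions differed in which of these markers they held. In section 2 the epithelial markers summed to 10697 CPM in tumor and 191 in neural spots. In section 1, where the label names the same kind of tumor, they summed to 46.2 CPM in tumor and 26.1 in neural spots, while 8 fibroblast markers summed to 55576, against 740 in the tumor of section 2. Cycling markers were at similar levels in both tumors, at 492 and 477 CPM against 51.4 and 57.7 in neural spots. Levels below are therefore given for both sections, and "tumor" in section 1 stands for a cycling, fibroblast-marker-rich lesion. Whether it is the same kind of tissue as the tumor of section 2 was not tested. The fitted tumor values take these unlike lesions as 1 region.

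As background, cells make cholesterol from acetyl-CoA through the mevalonate pathway. When sterols are scarce, SREBP-2 (encoded by Srebf2) travels to the nucleus with its escort SCAP and switches on the enzymes; when sterols are plentiful, INSIG proteins hold SCAP and SREBP-2 in the endoplasmic reticulum. Insig1 is itself a target of SREBP. Cholesterol in excess yields oxysterols that activate the LXR receptors, which raise Abca1 and Abcg1 and so lipid export onto apolipoproteins. The brain makes nearly all of its own cholesterol, with oligodendrocytes using much of it for myelin and astrocytes supplying neurons through APOE particles. Phagocytes that take up myelin or dying cells rely on ABCA1 to unload it.

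That control acts at the promoters. RefSeq on GRCm38.p6, which matches the mm10 build of the counts, gave the bases before the start of 5 of the 7 genes, all but Sqle and Fdft1. Hmgcs1, Insig1 and Abca1 are printed because they were the 3 members that passed the test in both tumor and edge. The lines run 5′ to 3′ toward the start of the gene, with matches on either strand in capitals to the sterol regulatory element letters TCACNCCAC, to CCAAT and to the E-box CACGTG, motifs that do not overlap here. Hmgcs1 is at chr13:119690101-119690350 on the plus strand, Insig1 at chr5:28071162-28071411 on the plus strand, and Abca1 at chr4:53159989-53160145 on the minus strand, cut short where an earlier annotated start of the gene begins.
Hmgcs1: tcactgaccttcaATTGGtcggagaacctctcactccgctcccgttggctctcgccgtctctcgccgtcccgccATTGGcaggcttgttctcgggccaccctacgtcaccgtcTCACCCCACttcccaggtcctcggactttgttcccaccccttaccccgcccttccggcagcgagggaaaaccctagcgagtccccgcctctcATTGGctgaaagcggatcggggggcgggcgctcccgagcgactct
Insig1: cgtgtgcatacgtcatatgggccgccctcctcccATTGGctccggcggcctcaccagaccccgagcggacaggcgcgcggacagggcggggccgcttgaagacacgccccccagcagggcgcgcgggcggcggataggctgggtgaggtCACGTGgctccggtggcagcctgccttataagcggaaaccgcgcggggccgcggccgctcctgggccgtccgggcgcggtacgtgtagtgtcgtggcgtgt
Abca1: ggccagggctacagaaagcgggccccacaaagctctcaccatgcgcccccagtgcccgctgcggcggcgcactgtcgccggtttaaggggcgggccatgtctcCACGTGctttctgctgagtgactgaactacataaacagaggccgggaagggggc
The Hmgcs1 window held the sterol regulatory element letters 137 bases before the start, which 1.05% of 32851 promoters of 250 bases share, and CCAAT in 3 places, which 33.8% hold at least once. Of the 3 motifs searched, the Insig1 window held CCAAT and an E-box, and the shorter Abca1 window only an E-box. At least 1 E-box occurs in 6.02% of promoters of 250 bases. No motif of the LXR receptors was searched for. Idi1 held CCAAT in 2 places and Cyp51 in 1. These are matches of letters in a short window, and the counts do not show which of them a factor uses.

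All 5 synthesis genes and Insig1 had their highest level in the neural region of section 1, and all but Sqle in that of section 2, while Abca1 had its lowest level there in both. For Idi1 in section 1 the neural region and the neural side of the edge were nearly level, at 7.02 and 7.00 CPM, the latter from 17 UMIs. Against neural tissue, Hmgcs1 and Insig1 were lower and Abca1 higher in the tumor, and Hmgcs1, Fdft1, Cyp51 and Insig1 were lower and Abca1 higher at the edge. No member differed past the threshold between tumor and edge or between the sides of the edge. The tests are edgeR's quasi-likelihood test on UMIs summed by section and region, with the section as a block and Benjamini-Hochberg adjustment over all 19074 genes, and a gene was called at an adjusted p under 0.05. Tumor and edge were set against the same neural libraries, so their calls are not independent of each other.

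**Figure D1:**
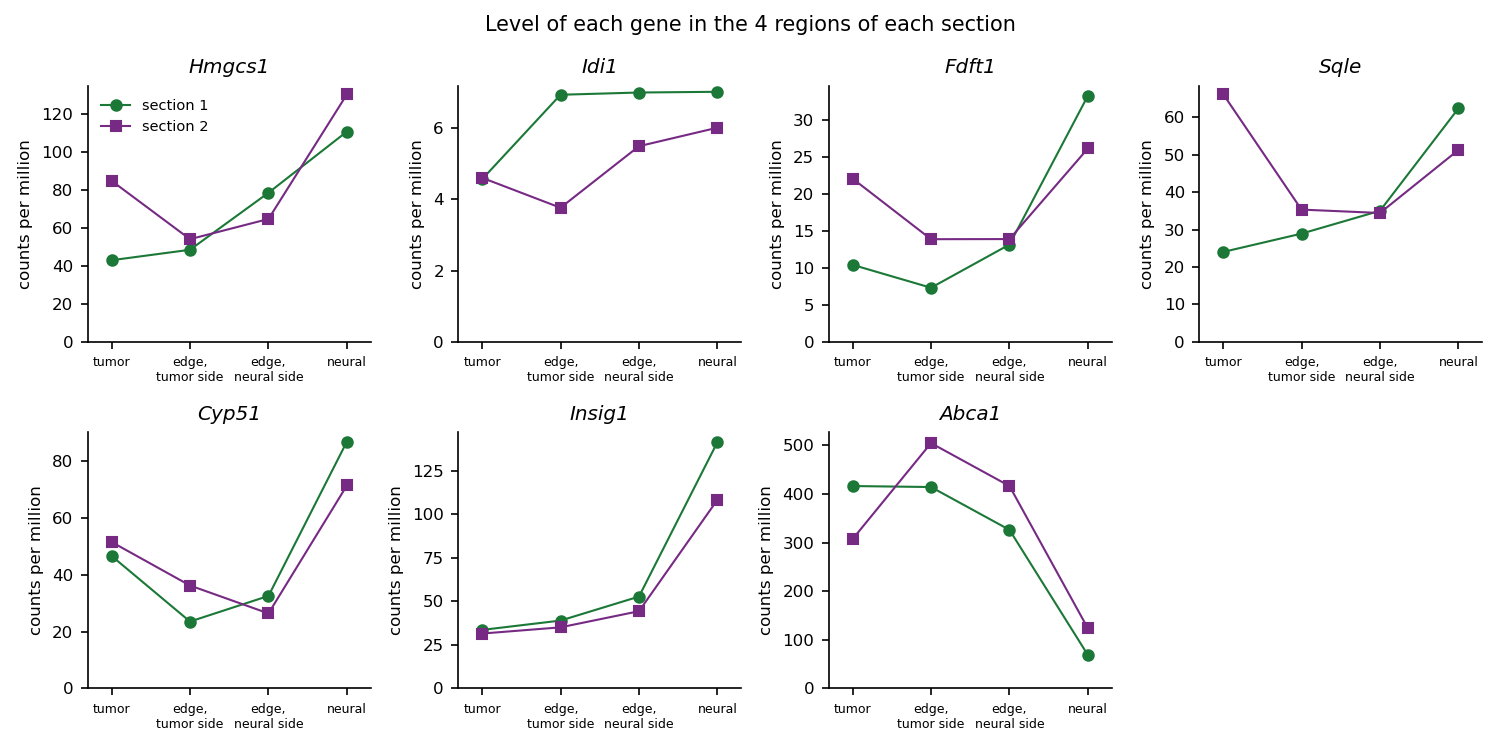
CPM (y axis, counts in 1000000, from 0) of each of the 7 genes in the tumor, both sides of the edge and the neural region (x axis), with section 1 as circles and section 2 as squares. Insig1 goes from 142 and 108 CPM in neural tissue to 33.6 and 31.5 in tumor, Abca1 runs the other way, and Hmgcs1, Fdft1 and Sqle part between the sections in the tumor.

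In the tumor, 1 of the 5 synthesis genes was called, and in the background of that comparison 19.8% of all genes were called higher and 17.3% lower than in neural tissue. Over all 7 members the count was 1 higher and 2 lower. The median log2 fold change of the 5 synthesis genes was -0.69, beside -0.08 over all genes tested. The edge had 3 of the 5 synthesis genes lower, with a median of -0.98 beside -0.04 over all genes. Over the 7 members, 1 was higher and 4 were lower at the edge, where 9.32% of all genes were called higher and 11.5% lower.

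Hmgcs1, at chr13:119690351-119708260, makes HMG-CoA early in the mevalonate pathway. Section 1 had 43.1 CPM of it in the tumor and section 2 had 85.0. The values of sections 1 and 2 were 48.6 and 54.2 on the tumor side of the edge, 78.7 and 64.8 on its neural side and 111 and 131 in neural tissue. Every tumor and edge value was below both neural values. The log2 fold change against neural was -0.95 (SE 0.30) in the tumor, with an edgeR adjusted p of 0.0474, and -0.98 (SE 0.25, edgeR adjusted p = 0.0390) at the edge. By section the tumor difference was -1.36 and -0.62, and the edge difference -0.84 and -1.13. The tumor call was marginal: it was lost with RLE scaling (adjusted p = 0.0546) and without the section block (adjusted p = 0.0739). The edge call was lost with the edge summed into 1 library (adjusted p = 0.103).

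Idi1, at chr13:8885606-8892396, makes the isoprene unit dimethylallyl diphosphate and was the least counted member, with 13 to 18 UMIs in each edge library. It had 4.56 and 4.61 CPM in the tumor, 6.94 and 3.76 on the tumor side of the edge, 7.00 and 5.49 on its neural side and 7.02 and 6.01 in neural tissue. Its log2 fold change against neural tissue was -0.50 (SE 0.31, edgeR adjusted p = 0.242) in the tumor and -0.19 (SE 0.28, edgeR adjusted p = 0.717) at the edge. Neither difference passed the test.

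Fdft1, at chr14:63145150-63181687, encodes squalene synthase, the first step given over to sterols alone. It had 10.4 and 22.1 CPM in the tumor, 7.32 and 13.9 on the tumor side of the edge, 13.2 and 13.9 on its neural side and 33.4 and 26.2 in neural tissue. The edge was lower than neural tissue in both sections, at log2 differences of -1.71 and -0.89, with a fitted log2 fold change of -1.37 (SE 0.34, edgeR adjusted p = 0.0362). That call was lost with the edge summed into 1 library (adjusted p = 0.116), without the section block (adjusted p = 0.0517) and with nearby neural spots as the reference (adjusted p = 0.544). In the tumor the difference was -0.97 (SE 0.39, edgeR adjusted p = 0.101), and the sections parted, with -1.63 in section 1 and -0.24 in section 2.

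Sqle, at chr15:59315092-59331193, encodes squalene epoxidase, which adds the oxygen that ring closure needs. It was the only member whose tumor and neural levels changed order between sections. In section 1 it had 24.0 CPM in the tumor and 62.4 in neural tissue, and in section 2 66.3 in the tumor and 51.3 in neural tissue. The edge lay between 28.9 and 35.3 CPM in all 4 of its libraries, below both neural values. Neither difference from neural tissue passed the test, with -0.44 (SE 0.42, edgeR adjusted p = 0.435) in the tumor and -0.80 (SE 0.36, edgeR adjusted p = 0.187) at the edge.

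Cyp51, at chr5:4080674-4104697, encodes the demethylase that trims lanosterol. Its lowest region levels were at the edge, with 23.5 and 36.2 CPM on the tumor side and 32.5 and 26.4 on the neural side. They were 46.6 and 51.5 in the tumor and 86.9 and 71.5 in neural tissue. Summed by region, the 3 did not overlap. By distance and without TMM factors they did. In section 1 Cyp51 was at 23.0 CPM 3 to 5 spots inside the lesion and at 23.9 in the first lesion spot. In section 2 it was at 37.8 in neural spots 3 to 5 spots from the border and at 46.4 in the depth of the lesion. The edge was lower than neural tissue, with a log2 fold change of -1.42 (SE 0.22, edgeR adjusted p = 0.00849). The tumor was at -0.69 (SE 0.26, edgeR adjusted p = 0.0800) against neural tissue and at 0.72 (SE 0.22, edgeR adjusted p = 0.0722) against the edge. Neither passed, although DESeq2, tried as an alternative, called the latter (0.73, adjusted p = 0.0267).

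Insig1, at chr5:28071412-28078662, moved alike in both sections. It had 33.6 and 31.5 CPM in the tumor, 38.9 and 35.0 on the tumor side of the edge, 52.7 and 44.3 on its neural side and 142 and 108 in neural tissue. In both sections the levels ran in that order, and neural tissue stood apart from the other regions. The log2 fold change against neural tissue was -1.93 (SE 0.17, edgeR adjusted p = 0.000508) in the tumor and -1.55 (SE 0.14, edgeR adjusted p = 0.00284) at the edge. The neighboring steps were smaller, with -0.38 (SE 0.15, edgeR adjusted p = 0.130) for tumor against edge and 0.39 (SE 0.18, edgeR adjusted p = 0.6002) for the neural against the tumor side.

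Abca1, at chr4:53030789-53159988, ran the opposite way. It had 416 and 307 CPM in the tumor, 414 and 505 on the tumor side of the edge, 326 and 416 on its neural side and 68.3 and 123 in neural tissue. The lowest of the 6 tumor and edge values was more than the higher neural value, and the neural side of the border was already above the neural region in both sections. The log2 fold change against neural tissue was 1.97 (SE 0.32, edgeR adjusted p = 0.00429) in the tumor and 2.13 (SE 0.29, edgeR adjusted p = 0.00569) at the edge, where the call was lost with the edge summed into 1 library (2.15, adjusted p = 0.0540). By section it was 2.60 and 1.31 in the tumor and 2.42 and 1.89 at the edge. The highest region differed, with tumor and tumor side of the edge nearly level in section 1 and the tumor side alone highest in section 2, and tumor against edge was at -0.16 (SE 0.27, edgeR adjusted p = 0.705).

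Between tumor and edge, 0 of the 7 members were called, where 8.52% of all genes were called higher in the tumor and 8.77% lower. At an unadjusted p under 0.05 the count of members was 2 of 7, Cyp51 and Insig1, where 6658 of all 19074 genes were under it. Between the neural and the tumor side of the edge edgeR called 0% of all genes in either direction, although 1718 genes had an unadjusted p under 0.05 and DESeq2 called 209. None of the members was among those 1718.

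The scale decides how the tumor difference reads. Per spot and without scaling, the RNA-rich tumor spots held more Hmgcs1 than neural spots, with a log2 difference of 0.92 and 0.89 in the sections, more Sqle (0.90 and 1.86) and more Cyp51 (1.38 and 1.03). Insig1 was nearly level per spot, at 0.22 and -0.27. Abca1 was higher by 4.88 and 2.82. The median over all genes on that scale was 1.62. So Hmgcs1 made up a smaller part of the RNA of tumor spots without being fewer per spot. At the edge, Cyp51, Insig1 and Fdft1 were lower per spot too, where the median over all genes was 0.70. They were at -0.55 and -0.55 for Cyp51, -0.54 and -0.80 for Insig1 and -0.64 and -0.25 for Fdft1. Hmgcs1 parted between the sections there, at 0.25 and -0.49.

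**Figure D2:**
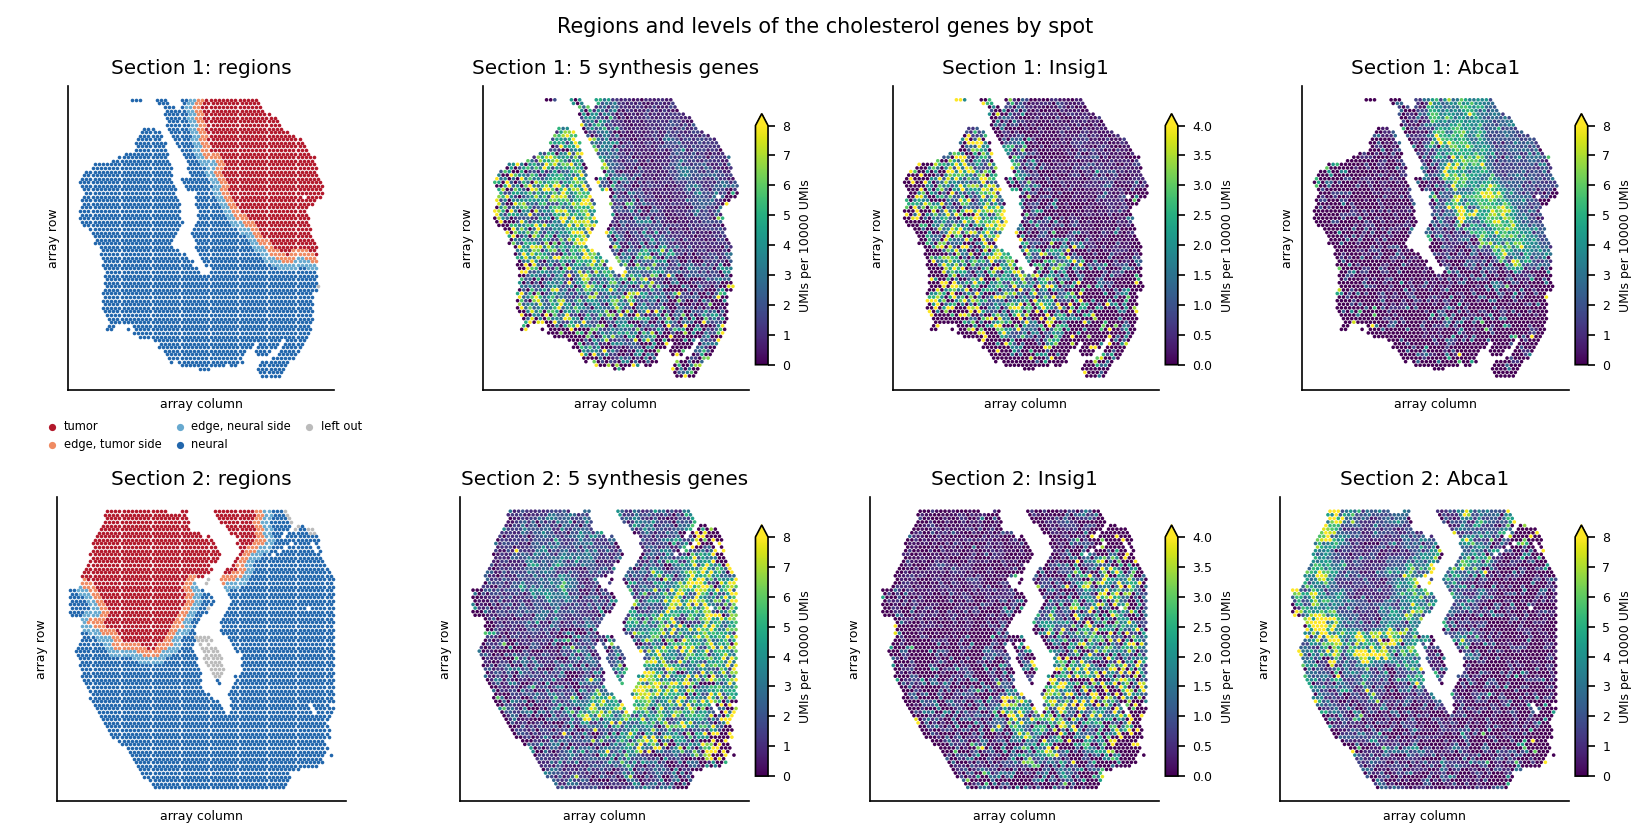
Each spot at its place on the array (axes in array rows and columns, in the proportions of the grid), colored in the first panels by region and in the others by UMIs per 10000 UMIs of the 5 synthesis genes together, Insig1 and Abca1, with colors capped at 8, 4 and 8. Synthesis genes and Insig1 are brightest in neural tissue away from the lesion, and Abca1 is brightest in a band along the border and, in section 1, inside the lesion.

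The change did not sit at the border alone. Summed over the 5 synthesis genes, section 1 had 401 CPM more than 20 spots from the lesion (95% exact Poisson counting interval 390 to 413) and 266 at 11 to 20 spots. It was at 189 (172 to 207) at 6 to 10 spots and higher again, at 237 (218 to 257), at 3 to 5 spots, with 225 at 2 spots and 146 in the last neural spot before the border. Inside the lesion the sum reached its lowest value of 78.6 at 3 to 5 spots and was 147 at 11 spots and deeper. Section 2 had 329 far from the lesion, 326 at 11 to 20 spots, 214 at 6 to 10, 168 at 3 to 5, 151 at the border, 135 at 2 spots inside and 204 in the depth. Both sections were thus lower near the border than far from it on the neural side, lowest inside the border and higher again deeper in the lesion, and the course on the neural side was not even in section 1.

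Insig1 was likewise lower toward the border on the neural side. It went from 191 to 51.5 CPM on the neural side of section 1 and from 129 to 45.2 in section 2. Its lowest value lay inside the lesion, at 18.2 at 3 to 5 spots in section 1 and 23.4 at 6 to 10 spots in section 2, and in the depth it was at 38.4 and 27.2. Abca1 went from 50.1 to 402 on the neural side of section 1 and from 77.2 to 506 in section 2. Its peak lay 3 to 5 spots inside the border in section 1, at 474, and in the first lesion spot in section 2, at 574. At 6 to 10 spots inside it was still at 465 in section 1 and at 236 in section 2, and in the depth it was at 241 and 209. Counting intervals here cover counting error only, and the distance bins hold 61 to 1471 spots.

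**Figure D3:**
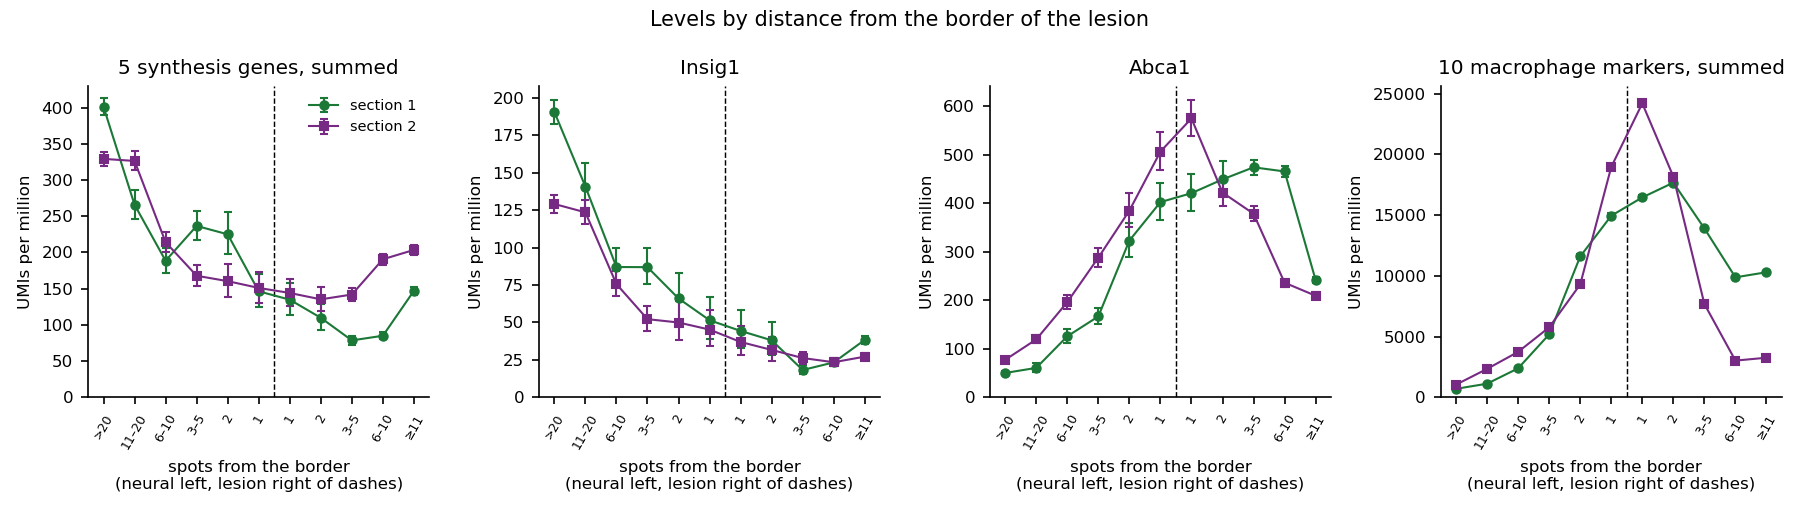
CPM without TMM factors (y axis, from 0) of the 5 synthesis genes together, of Insig1, of Abca1 and of 10 macrophage markers, by distance in spots from the border (x axis, neural side left of the dashed line), with 95% counting intervals as bars, section 1 as circles and section 2 as squares. Synthesis genes and Insig1 are highest at the far left and lower at the border. The macrophage markers are highest 1 or 2 spots inside the border. Abca1 is highest in the first lesion spot in section 2, and at 3 to 5 and 6 to 10 spots inside in section 1. Abca1 and the macrophage markers are lower than these peaks in the depth of the lesion.

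Because levels varied within neural tissue, the choice of neural reference mattered. With neural spots within 10 spots of the tumor as the reference, a setting chosen after seeing the profile, Insig1 stayed lower (-1.12, edgeR adjusted p = 0.00357, in the tumor and -0.70, adjusted p = 0.0348, at the edge) and Abca1 stayed higher (1.06, adjusted p = 0.0381, and 1.26, adjusted p = 0.0424). The calls of Hmgcs1 (-0.39 in the tumor and -0.36 at the edge), Fdft1 (-0.42 at the edge) and Cyp51 (-0.74 at the edge) were lost. With only neural spots beyond 10 spots, Fdft1 and Cyp51 were called lower in the tumor as well, at -1.21 and -0.87. Against the nearby neural spots their tumor differences were close to none, at -0.072 and -0.067. Idi1 was at -0.25 and Sqle at 0.23 in that setting, and none of these passed.

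Neural spots rich in neurons of the cerebellar cortex held less of the synthesis genes in sum, so levels by distance were also read on either side of that split. Idi1 did not follow the sum, with a Spearman's rho across neural spots of 0.061 and 0.039 with granule neuron markers. In the top 10% of neural spots by granule neuron markers the summed synthesis level was 0.479 and 0.458 of that in the other spots, and by Purkinje markers 0.526 and 0.465. In spots rich in oligodendrocyte markers the ratio was 0.988 and 1.48. When neural spots were split at the median score of granule and Purkinje neuron markers, the sum was lower at 3 to 10 spots than farther away on both sides of it. Above the median of section 1 the sum was 197 CPM at 3 to 10 spots, 240 at 11 to 20 and 330 farther away, and below it 278, 325 and 429. In section 2 it was 148, 199 and 231 above the median and 276, 474 and 472 below it. Abca1 ran against it. Below the median it went from 183 at 3 to 10 spots to 47.7 farther than 20 in section 1, and from 203 to 55.1 in section 2. The split did not hold the mix of cells equal over distance. Between the same distances, oligodendrocyte markers went from 9581 to 13700 above and from 20082 to 18657 below the median in section 1. In section 2 they went from 5197 to 9716 above it and from 11257 to 17197 below it. Macrophage markers went from 3143 to 679 above and from 6448 to 707 below it in section 1. In section 2 they went from 3837 to 864 and from 5930 to 1301.

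Markers of other cells also differed between the regions. Oligodendrocyte markers (8 genes, 4 of which helped to define the neural region) summed to 15514 and 11054 CPM in neural tissue, to between 3931 and 9200 at the edge and to 486 and 703 in the tumor. Macrophage markers (10 genes, Cd68, C1qa and Csf1r among them, none used to define regions) summed to 1547 and 2256 in neural tissue, to between 13301 and 20886 at the edge and to 10807 and 4018 in the tumor. The peak of the macrophage markers lay 2 spots inside the border in section 1 and 1 spot inside in section 2. Deeper in the lesion, oligodendrocyte markers and the synthesis sum parted. From 3 to 5 spots to 11 spots and deeper, the markers went from 1405 to 199 CPM in section 1 and from 1748 to 340 in section 2. The synthesis sum went from 78.6 to 147 and from 142 to 204. No gene of these lists was without a UMI in any region. Their part in the levels of the cholesterol genes was not tested.

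Within a region, Abca1 was higher in spots with more of the macrophage markers. When the spots of a region were put into 4 equal groups by macrophage score, Abca1 in tumor spots went from 228 CPM in the lowest group to 552 in the highest in section 1 and from 156 to 466 in section 2. At the edge it went from 223 to 596 and from 350 to 745. In neural tissue it went from 52.2 to 131 and from 82.4 to 236. The groups were formed within each region, so the lowest groups of different regions do not hold equal macrophage RNA. The synthesis sum went the other way, from 131 to 76.2 and from 215 to 127 in tumor spots. Across spots, Spearman's rho of Abca1 with the macrophage score was 0.709 and 0.612 over 779 and 911 tumor spots, and of the synthesis sum -0.315 and -0.344. Oligodendrocyte and astrocyte markers gave similar values in the tumor, and not all other lists did. Abca1 was at 0.579 and 0.569 with oligodendrocyte markers and at 0.539 and 0.612 with astrocyte markers. The synthesis sum was at -0.250 and -0.322 with oligodendrocyte markers and at -0.202 and -0.384 with astrocyte markers. With fibroblast markers Abca1 was at -0.506 and 0.152 in the tumor, and with epithelial markers at 0.0204 and -0.447. There the synthesis sum was at 0.213 and -0.0956 with fibroblast markers and at 0.0181 and 0.298 with epithelial markers. At the edge Abca1 was at 0.612 and 0.426 with the macrophage score, at 0.208 and -0.0434 with oligodendrocyte markers and at -0.413 and -0.158 with astrocyte markers. These describe spots of 1 library each, which share depth and neighbors.

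**Figure D4:**
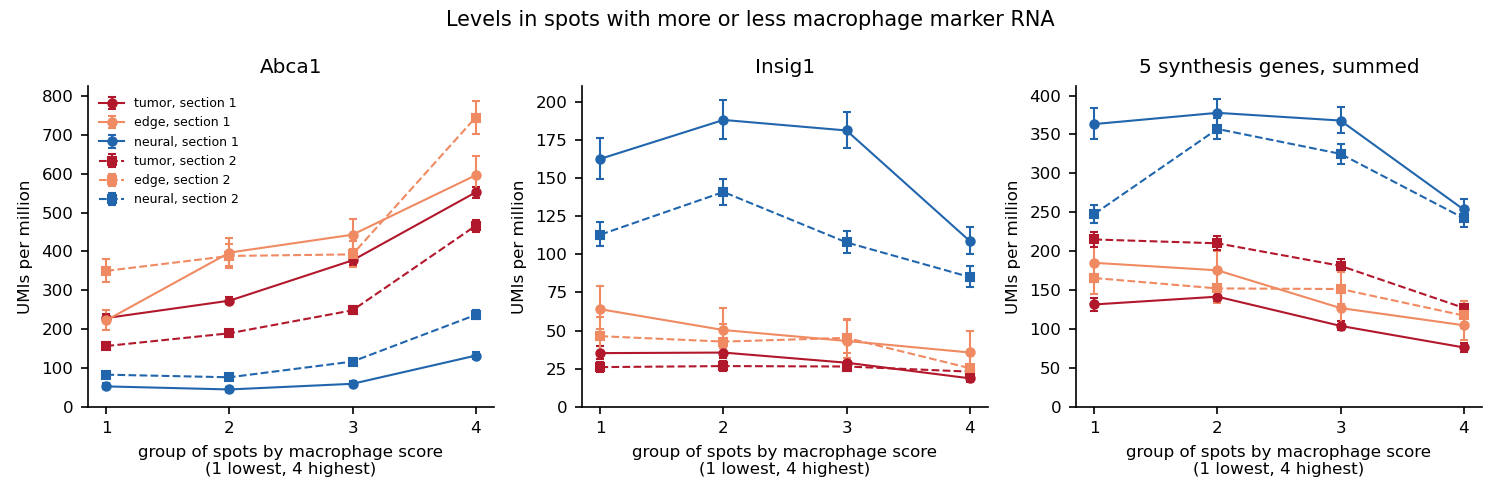
CPM without TMM factors (y axis, from 0) of Abca1, Insig1 and the 5 synthesis genes together in 4 equal groups of spots by macrophage marker score within each region (x axis), with 95% counting intervals, solid lines and circles for section 1, dashed lines and squares for section 2. Abca1 is highest in the top group in every region, from 228 to 552 in the tumor of section 1, and the synthesis sum is lower there than in the bottom group in tumor and edge.

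The genes whose spot-to-spot pattern was most like that of Abca1 in the tumor were Gpnmb, Ctsb, Fabp5, Ctsd and Fth1, with a Pearson r of 0.646 to 0.579 in the section where it was lower, among 9174 genes compared. Gpnmb is on the macrophage list used here, Ctsb and Ctsd encode lysosomal proteases and Fth1 the ferritin heavy chain. In neural tissue they were Ctsd, Ctsz, C1qc, Serpina3n and Lcn2, at 0.279 to 0.257 among 4318 genes. For the synthesis sum the likeness was weak in the tumor (Nfib, Cp, Trps1, Sik1 and Tmem176a, 0.282 to 0.215). In neural tissue it was highest for Uchl1, Slc6a11, Resp18, Nefm and Nefl (0.375 to 0.306), of which Nefm and Nefl encode neurofilaments and helped to mark the neural region. The synthesis genes were barely tied to each other spot by spot, with Spearman's rho between -0.0519 and 0.249 for their pairs. Their counts were mostly below or near 1 UMI per spot. Higher counts were in tumor spots, at 1.95 and 2.73 for Hmgcs1, 2.11 and 1.66 for Cyp51 and, in section 2, 2.13 for Sqle. In tumor spots Abca1 was at -0.356 and -0.328 with Cyp51, at -0.285 and -0.346 with Sqle and at -0.0917 and -0.0413 with Idi1.

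Against neural tissue, the other enzymes of the pathway were lower where they were called. Of 15 further synthesis genes listed 13 were tested, and Fdps and Lbr were not analysed here. In the tumor 5 of 13 were called lower and 0 higher, with a median log2 fold change of -0.50, where 17.3% of all genes were called lower and 19.8% higher. They were Acat2 (-1.29), which joins acetyl-CoA units, the phosphomevalonate kinase Pmvk (-0.80), and Tm7sf2 (-0.97), Msmo1 (-0.998) and Sc5d (-0.99), which work on the sterol rings. At the edge the same 5 and Nsdhl (-0.96) were lower, with a median of -0.69, where 11.5% of all genes were called lower. Dhcr7, which acts near the end of the pathway, parted between the sections in the tumor, at -0.24 in section 1 and 1.93 in section 2, and did not pass. Against the edge, only Nsdhl of the 13 was called, higher in the tumor by 0.71, near the background of 8.52% of all genes called higher and 8.77% lower.

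Sterol sensing and uptake genes moved in both directions. In the tumor 4 of 12 were higher and 1 lower, with a median of 0.58, near the background of 19.8% and 17.3% of all genes. Srebf1, which encodes the SREBP of fatty acid synthesis, was higher by 1.57, the SREBP protease Mbtps1 by 1.30, Mylip, which sends lipoprotein receptors to breakdown, by 1.24, and the HDL receptor Scarb1 by 1.61. The lipoprotein receptor Vldlr was lower, at -2.24. At the edge 3 were higher, Srebf1 (0.997), Mylip (1.33) and Scarb1 (1.02), and 2 lower, Srebf2 (-0.78) and the sterol carrier Stard4 (-0.997), where 9.32% and 11.5% of all genes were called. Insig2, the relative of Insig1, was at -0.74 in section 1 and 1.59 in section 2 and did not pass.

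Efflux and storage genes gave the most calls at the edge. There 7 of 16 were higher and 2 lower, with a median of 0.51, where 9.32% of all genes were called higher and 11.5% lower. The highest was Plin2, a coat protein of lipid droplets, at 3.79 (SE 0.38, edgeR adjusted p = 0.00311). The others were Lipa (2.22) and Npc2 (1.92), which free and hand on cholesterol in lysosomes, Ch25h (2.03), which makes 25-hydroxycholesterol, Apoe (1.94), Soat1 (1.68), which esterifies cholesterol, and the pump Abcg1 (1.07). Abcg4 (-1.56), a relative of Abcg1, and Cyp46a1 (-1.47), with which neurons clear cholesterol, were lower. In the tumor the counts were near the background of 19.8% and 17.3%. There 5 were higher, Plin2 (2.64), Npc2 (1.92), Lipa (1.31), Rxra (0.81) and Nr1h2 (0.75), and 3 lower, Abcg4 (-3.67), Cyp46a1 (-2.86) and Lcat (-0.91). Apoe, Soat1, Ch25h and Abcg1 did not pass in the tumor, at 1.90, 1.88, 2.01 and 1.18 in section 1 and 0.53, 0.26, 0.10 and 0.18 in section 2. Macrophages are known to use several of these genes, and their markers were highest at the edge, but their part in these calls was not tested.

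**Figure D5:**
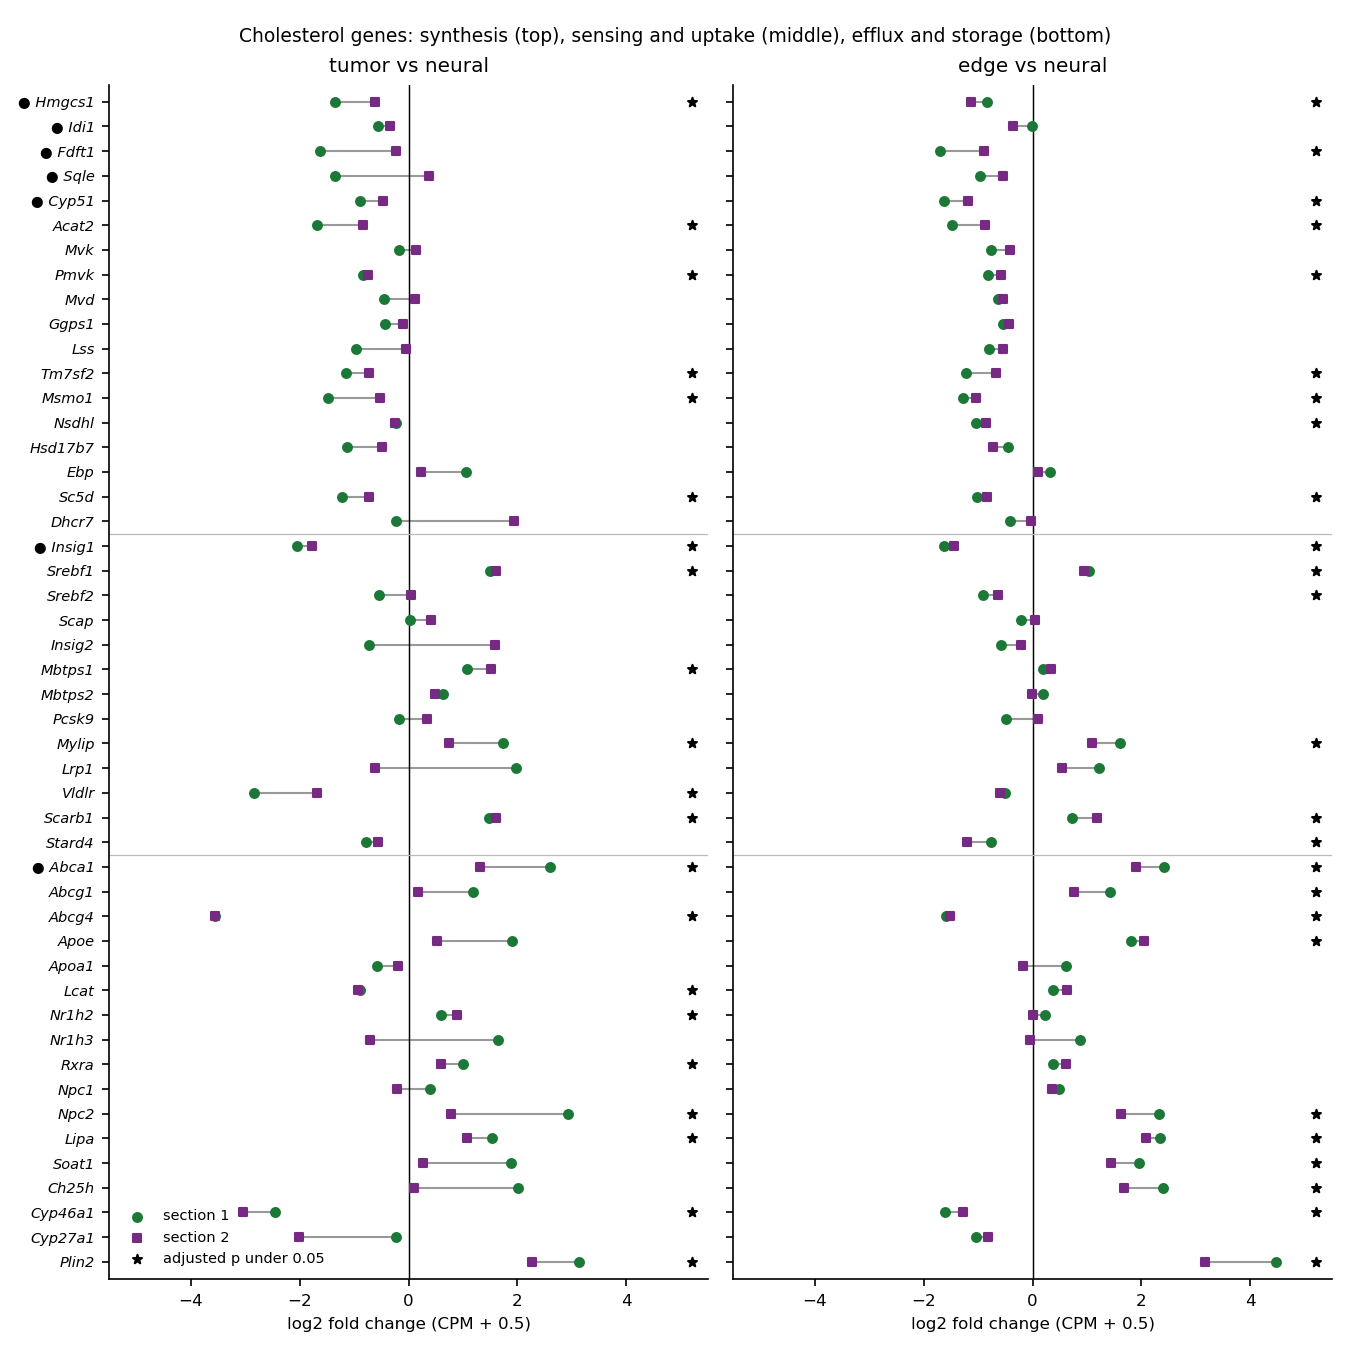
Log2 fold change in each section (x axis, from CPM plus 0.5, circles for section 1 and squares for section 2) of the 7 members, marked with a dot, and 41 further cholesterol genes, for tumor against neural and edge against neural, with a star at an edgeR adjusted p under 0.05. Synthesis genes lie mostly left of 0 at the edge in both sections, and Plin2 is farthest to the right there, at 4.47 and 3.16.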

How the data were processed

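RNA of 2 fixed cerebellar sections (5 µm thick, capture areas with sides of 6.5 mm) was profiled. Per the labels, the authors counted with Space Ranger 2.1.1 on mm10. The files as deposited hold unnormalized UMI counts by gene and by spot under tissue, 63986887 UMIs over 3406 spots and 71878333 over 4017. Spots under 500 UMIs or 10 genes (91 and 18) were left out. The array's barcodes are reused, so 3024 occur in both sections. The authors' clusters were not used here. A spot's score was the mean log2(1 + UMIs per 10000) of lesion genes minus that of neural genes, averaged over the spot and up to 6 neighbors and split by Otsu's threshold in each section. Lesion pieces under 50 spots were left out (1 and 57 spots, in section 2 mostly a piece rich in the choroid plexus gene Ttr). UMIs were summed into 8 section and region libraries (2182363 to 40388156 UMIs, TMM factors 0.816 to 1.114) and fitted with edgeR 4.0.16 (R 4.3.3; glmQLFit, robust; filterByExpr; section as block, since regions of a section share a mouse; 3 residual degrees of freedom). The edge is the mean of its sides' coefficients. The p-values set each difference against how far the differences among all 4 regions disagreed between the 2 sections, since the block removes each section's own level. That spread is shared by all comparisons of a gene and drawn toward that of other genes. It is thus not the disagreement in 1 comparison alone. The sides of the edge are neighboring strips of the same section that count as separate libraries. On simulated data for tumor against neural over 19074 genes, 64 of 100 genes changed by 4-fold and 4 of 100 changed by 2-fold were recovered. There were 11 false calls. Far fewer genes were changed there than were called in the data. Alternatives were DESeq2 1.42.0, other scalings, no filter, no block, other edge widths, region scores and spot filters. Members and lists were chosen with earlier results of these data known. Genes named are the members, those of 3 cholesterol lists, and the 5 most alike per pattern. Some genes of these lists are not reported here and were left out of the lists' counts and medians.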

Additional observations from a re-analysis of the deposited data

How the results depend on the processing

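The tests rest on 2 sections, so a difference that missed the threshold may still be there. In the simulation 4 of 100 genes changed by 2-fold were recovered. Far fewer genes were changed there than the 7083 called in tumor against neural, which makes the adjusted threshold stricter. Its recovery therefore does not give the power of these tests. Of 469 values of the members under 17 alternatives, 428 stayed on the same side of the threshold or, where untested, moved by less than the spread between sections. Another 10 lost a call, 6 gained one, 24 moved and 1 called difference was reversed. The sign changed in 33 of the 469. For 1 section alone the rule on spread could hardly fail, because that spread came from the same 2 sections. The genes called per comparison stayed within 1.5 times except as follows. Edge against neural had 3962 genes called, but 1204 with the edge summed into 1 library and 1500 with neural spots within 10 spots of the tumor, and 2 in place of 5 members under either. Tumor against edge had 3297, but 949 with the edge summed and 1879 without the section as a replicate block. It had 1 member in place of 0 with DESeq2 (Cyp51) or library size only (Insig1, -0.69). DESeq2 called 4910 genes there and library size only 2706, the latter with a median over all genes of -0.25. The sides of the edge had 0 called, but 209 with DESeq2. Tumor against neural had 5 members called in place of 3 with library size only or with neural spots beyond 10 spots. All genes called there were 7773 and 7434, in place of 7083. With library size only the median log2 fold change over all genes was -0.42, in place of -0.08. With the edge summed, Abca1 at the edge (2.15) missed the threshold at an adjusted p of 0.0540, as did Hmgcs1 (-0.98) and Fdft1 (-1.36), and without the block Fdft1 at the edge did (-1.31). Raw UMIs per spot turned the sign of called differences around. On that scale the median over all genes was 1.62 in tumor against neural, 0.70 in edge against neural and 0.996 in tumor against edge. Each value that follows lies below the median of its comparison. In tumor against neural they gave 0.90 for Hmgcs1, 0.62 for Acat2, 1.10 for Pmvk, 0.91 for Tm7sf2, 0.88 for Msmo1, 0.90 for Sc5d and 0.98 for Lcat. In edge against neural they gave 0.17 for Pmvk and 0.093 for Srebf2, and in tumor against edge 0.12 for Lipa. The settings on neural spots within and beyond 10 spots were chosen after seeing the data. Section 2 alone gave log2 fold changes of 1.31 for Abca1, -1.77 for Insig1 and -0.62 for Hmgcs1 in tumor against neural, and section 1 alone 2.60, -2.06 and -1.36.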
